A study of Mus musculus with 2 samples.

Results

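The interferon-induced genes Ifit1, Ifit2, Ifit3, Ifit3b, Isg15, Usp18, Herc6, Isg20 and Rsad2 were followed across the CD45+ cells of the mouse brain. They are 9 of the 27998 genes counted, were taken by symbol, and each matched 1 row. They were chosen because their counts differed between genotypes in these same samples, and the study itself singled out Isg15, so the values below are descriptions and no independent evidence of a direction. CD45+ leukocytes were sorted at p21 from brains of untreated C57Bl/6 mice: twi mice, which are galc-/- and lack the lysosomal enzyme galactosylceramidase, and their galc+/+ wild-type (WT) littermates. Cells of 2 to 3 animals were pooled per genotype into 1 library of the 10x Genomics single-cell 3′ v2 assay, in which each captured transcript carries a unique molecular identifier (UMI). With 1 library per genotype there is no replicate error, no test was made, and genotype cannot be told apart from library, animal or day of handling.

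Interferons are secreted alarm proteins. Type I and type III interferons bind their receptors and, through the kinases JAK1 and TYK2, switch on the factor ISGF3, which includes STAT2 and IRF9 and binds the interferon-stimulated response element (ISRE) in promoters. Interferon gamma, made by activated T and NK cells, works mainly through gamma-activated sites (GAS). The IFIT proteins bind foreign RNA and curb its translation. ISG15 is a ubiquitin-like protein that is attached to other proteins by the E1 enzyme UBA7, the E2 enzyme UBE2L6 and, in the mouse, the E3 ligase HERC6, while USP18 removes it and also dampens the type I interferon receptor. ISG20 is an exonuclease that degrades RNA, and RSAD2 (viperin) makes a modified nucleotide that stops viral polymerases.

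On the mm10 (GRCm38) assembly, GENCODE M21 places the 4 Ifit members on chromosome 19 in the order Ifit2 (chr19:34550694-34576419), Ifit3 (chr19:34583531-34588731), Ifit3b (chr19:34607970-34613401) and Ifit1 (chr19:34640871-34650009), all on the plus strand. Isg15 lies at chr4:156199424-156200818 on the minus strand, Rsad2 at chr12:26442746-26456452 on the minus strand and Isg20 at chr7:78913424-78920396 on the plus strand. Herc6 (chr6:57581000-57664632) and Usp18 (chr6:121245906-121270917) are both on the plus strand of chromosome 6, and both overlap other annotated genes. Gm45193 lies on the same strand as Herc6, so their reads can be mixed.

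Promoters were read for 8 of the 9 genes from RefSeq (GRCm38.p6), each with 250 bases before and 50 after the start site; Usp18 was not among them. The ISRE core, written as GAAA, any 2 bases and GAAA again, and searched on both strands, occurred in the promoters of 5 of the 8 genes, namely Ifit1, Ifit3, Ifit3b, Isg15 and Rsad2. It occurred in 3.44% of all 32851 promoters. That share is counted per start site, whereas a gene counts here if any of its start sites matched. The 5 promoters are shown because they carry this element. The genes were taken as interferon-induced and ISGF3 binds this element, so nothing is read from the number that match. Capitals mark the matches to the core, which read TTTC, 2 bases and TTTC where the match is on the other strand.
Ifit1 (chr19:34640639-34640938, plus strand): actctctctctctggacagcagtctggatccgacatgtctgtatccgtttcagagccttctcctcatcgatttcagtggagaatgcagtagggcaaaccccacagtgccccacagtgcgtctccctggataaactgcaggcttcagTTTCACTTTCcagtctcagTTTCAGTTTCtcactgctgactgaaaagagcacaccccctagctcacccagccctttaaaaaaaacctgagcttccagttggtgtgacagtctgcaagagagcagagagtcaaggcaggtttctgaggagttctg
Ifit3 (chr19:34583279-34583578, plus strand): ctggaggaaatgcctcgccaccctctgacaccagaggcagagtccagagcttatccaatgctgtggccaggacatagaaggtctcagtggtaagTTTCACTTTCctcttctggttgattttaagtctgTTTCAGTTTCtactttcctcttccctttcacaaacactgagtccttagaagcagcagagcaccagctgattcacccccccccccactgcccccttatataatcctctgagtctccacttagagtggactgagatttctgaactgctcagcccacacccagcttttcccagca
Ifit3b (chr19:34607707-34608006, plus strand): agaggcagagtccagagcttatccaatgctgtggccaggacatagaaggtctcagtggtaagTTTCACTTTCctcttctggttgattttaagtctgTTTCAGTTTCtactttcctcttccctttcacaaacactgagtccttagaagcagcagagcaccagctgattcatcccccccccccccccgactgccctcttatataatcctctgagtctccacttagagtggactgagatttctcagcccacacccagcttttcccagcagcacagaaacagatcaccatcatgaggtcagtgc
Isg15 (chr4:156200769-156201068, minus strand): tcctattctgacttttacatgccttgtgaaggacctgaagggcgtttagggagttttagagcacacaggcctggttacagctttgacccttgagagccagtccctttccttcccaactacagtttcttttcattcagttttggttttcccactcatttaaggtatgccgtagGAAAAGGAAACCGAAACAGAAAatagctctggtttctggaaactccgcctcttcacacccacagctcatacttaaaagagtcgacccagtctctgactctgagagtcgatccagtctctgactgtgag
Rsad2 (chr12:26456403-26456702, minus strand): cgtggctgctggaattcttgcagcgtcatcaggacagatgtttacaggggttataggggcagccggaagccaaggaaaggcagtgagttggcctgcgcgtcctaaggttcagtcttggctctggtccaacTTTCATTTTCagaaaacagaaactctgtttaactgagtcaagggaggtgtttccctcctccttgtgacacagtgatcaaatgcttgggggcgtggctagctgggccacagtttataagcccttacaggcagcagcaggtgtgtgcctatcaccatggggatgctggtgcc

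Ifit1 had matches that began 104 and 85 bases before its start site. Those of Ifit3 began 156 and 122 bases before, and the same pair of motifs stood at 188 and 154 bases before the start site of Ifit3b. In Isg15, 3 overlapping matches ran together into GAAAAGGAAACCGAAACAGAAA, beginning 78 bases before the start. Rsad2 had a single match at 120 bases. These letters are not in the windows read for Ifit2, Herc6 and Isg20. The GAS letters TTCNNNGAA, which stand in 8.30% of all promoters, were found in the windows of Ifit2 and Isg20 and overlapped no ISRE match. A match is a description of the letters and shows no binding.

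Ifit3 and Ifit3b are near copies. Of the 1696 stretches of 50 bases in the Ifit3 transcript, 869 (51.2%) also stand in Ifit3b. In the last 500 bases, where a 3′ assay reads most, 67 of 451 stretches (14.9%) of Ifit3 were shared and 0 of 451 of Ifit3b. Whether reads of the shared stretches were divided between the 2 genes or dropped by the filter on mapping quality is therefore uncertain. Their sum is given beside them and would not restore dropped reads. A 3′ UMI count does not grow with transcript length, so counts can be set beside each other across genes, within differences in capture.

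The deposited counts held 3749714 UMIs in 1278 WT barcodes and 4807539 UMIs in 1220 twi barcodes, and no barcode was shared. Barcodes with at most 15% mitochondrial UMIs were kept, which left 1271 WT and 1207 twi cells with medians of 2222 and 3182 UMIs. Galc itself had 4 WT and 8 twi UMIs, which is no check of the labels, since UMIs are counted here and not the point mutation of twi. Xist, which marks female cells, had 0 UMIs in WT and was found in 47.6% of twi cells, while a Y-linked gene was found in 38.3% of WT and 19.3% of twi cells, so the sexes were pooled unequally. RNA outside cells differed too: S100a8 and S100a9, which neutrophils make, reached 789 to 1288 counts per 1000000 UMIs (CPM) in the 7 other WT classes and 264 to 390 CPM in the 7 twi ones. Cd3 UMIs, which mark T cells, were instead higher in twi in B cells (0.067 per WT and 0.22 per twi cell), neutrophils (0.13 and 0.33) and monocytes (0.28 and 1.66). In microglia they were lower in twi (1.64 and 0.72). Whether these came from RNA outside cells or from doublets, and their part in the counts of the 9 genes, was not tested.

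Cells were put into 8 classes by marker UMIs that include none of the 9 genes. There were 96 WT and 386 twi CD8 T cells, 46 and 68 CD4 T cells, 70 and 62 NK cells, 564 and 172 B cells, 229 and 67 neutrophils, 39 and 62 monocytes and 22 and 18 microglia. A further class of 7 WT and 35 twi T cells was set by Cd163l1 alone, a gene of gamma-delta T cells. The 5 gamma-delta receptor genes meant to mark it are not among the genes counted here, so it is called Cd163l1+ T cells. The named classes carried their markers, with 10.9 Cd3 and 8.25 Cd8 UMIs per CD8 T cell in WT and 14.4 and 10.2 in twi. Of the endothelial markers Cldn5, Flt1 and Ly6c1, at least 2 UMIs were found in 4.17% of WT and 41.7% of twi CD8 T cells and in 5.13% and 30.6% of monocytes. In CD8 T cells Cldn5 and Flt1 were at 0 in both libraries, and the UMIs were those of Ly6c1, a surface protein that T cells and monocytes also make, at 60.1 CPM in WT and 606 CPM in twi. Of the plasmacytoid dendritic markers Siglech, Ccr9, Cox6a2 and Klk1, at least 2 UMIs were found in 72.7% of WT and 50% of twi microglia. These were mostly Siglech, which microglia also make, with 84 and 45 UMIs, while Ccr9, Cox6a2 and Klk1 were at 0 in WT microglia and had 1, 2 and 0 UMIs in twi. Their part in the results was not tested.

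Summed over the 9 genes, the level was 158 CPM in all WT cells (592 UMIs) and 840 CPM in all twi cells (4026 UMIs), a ratio of 5.31 with a 95% interval of 4.87 to 5.80. All intervals here are exact Poisson, conditional binomial or Clopper-Pearson intervals and cover counting error only. Member UMIs clump in single cells, so the intervals of levels and ratios leave out the spread between cells as well as animals. CD8 T cells supplied 24.5% of the member UMIs in WT and 56.4% in twi, where they also were a larger share of cells (7.55% and 32.0%). B cells, the largest WT class, gave 14.9% of the WT member UMIs and 1.07% of the twi ones.

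In twi the summed level was highest in CD8 T cells, at 1196 CPM (1147 to 1246), and the interval lay above that of every other class. Neutrophils (726 CPM), NK cells (599), monocytes (576), microglia (510), CD4 T cells (497) and Cd163l1+ T cells (381) followed, and each interval in that order overlapped the next. B cells stood apart at the bottom, at 96.8 CPM (70.0 to 130). In WT, microglia came first at 1344 CPM (1085 to 1646), of which 1 cell held most, as described below. CD8 T cells followed at 349 CPM (294 to 410), then CD4 T cells (219), neutrophils (161), NK cells (87.2), monocytes (72.2) and B cells (71.2), with neighbours overlapping. The Cd163l1+ T cells of WT had 0 UMIs in 7 cells, with an exact interval up to 162 CPM.

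**Figure D1:**
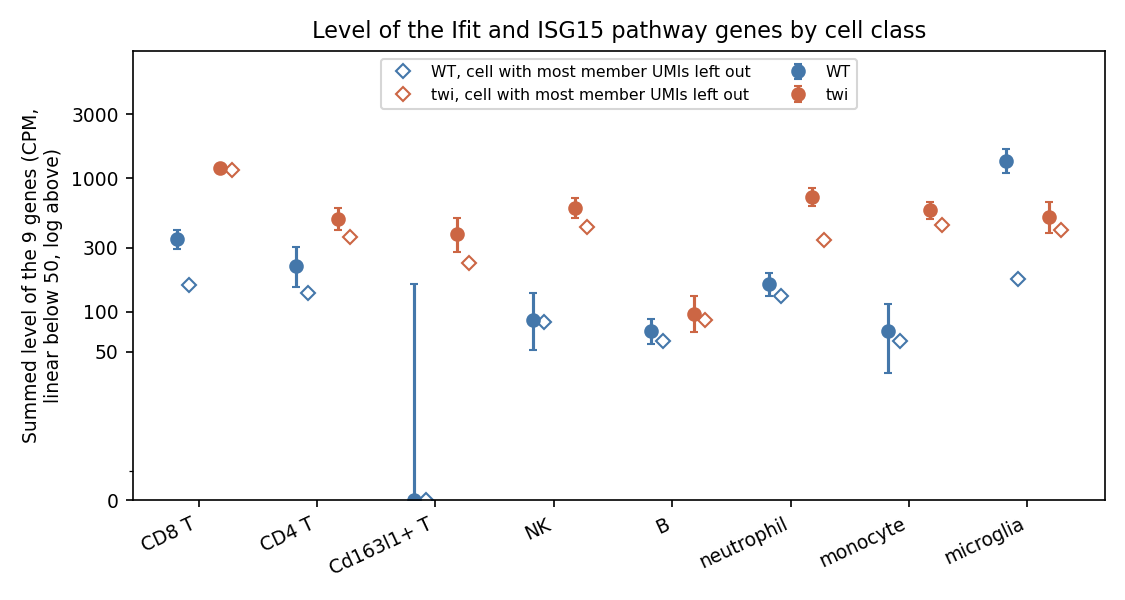
Summed level of the 9 genes in CPM (vertical axis, linear below 50 and log above) for each cell class in WT (blue) and twi (orange). Filled circles with bars are all cells with exact 95% Poisson intervals, and open diamonds leave out the 1 cell of each library with the most member UMIs; the WT microglia value falls from 1344 to 177 CPM and the twi B cells stay at the bottom.

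Single cells set several of these values. In WT CD8 T cells 1 cell held 80 of 145 member UMIs, in WT microglia 1 cell held 81 of 93, and in twi neutrophils 1 cell held 88 of 165. In twi CD8 T cells the highest cell held 93 of 2272. Each class is therefore given with and without the cell of each library that had the most member UMIs.

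**Figure D2:**
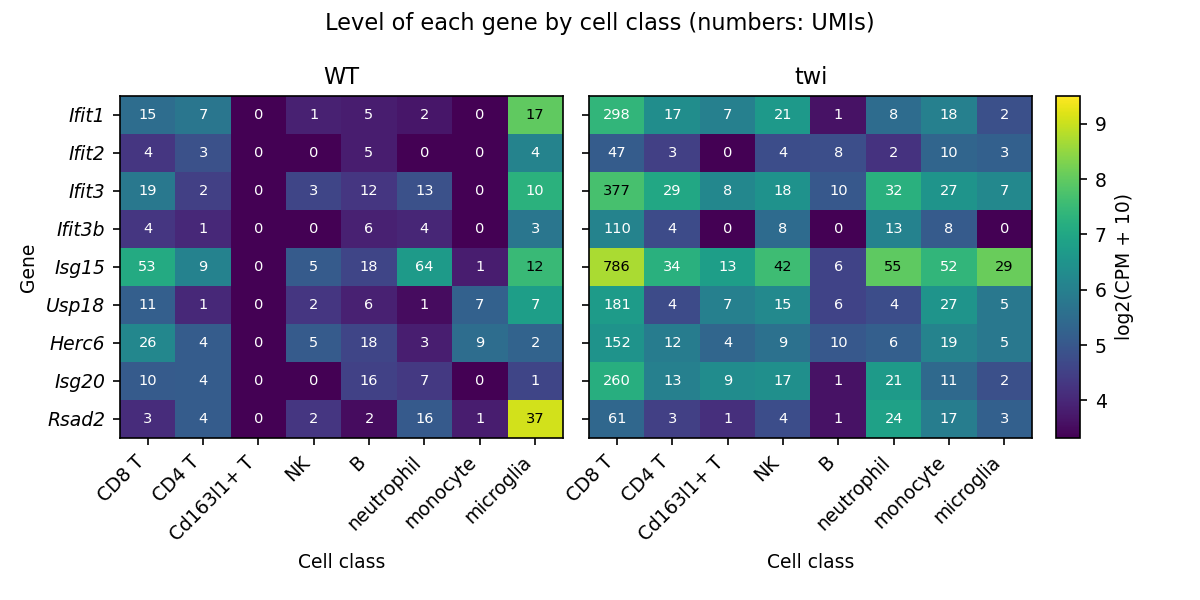
Level of each gene (rows) in each cell class (columns) as log2(CPM + 10), with the UMI count printed in each field, for WT (left) and twi (right). The brightest twi column is CD8 T cells, led by Isg15 with 786 UMIs, and the brightest WT field is Rsad2 in microglia, with 37 UMIs that all came from 1 cell.

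In CD8 T cells all 9 genes had a higher level in twi than in WT, and 8 of 9 were at least 2-fold higher, where 12.1% of the 8797 genes with at least 10 UMIs were. Since the genes were chosen on this difference, nothing is read from that count. The median log2 ratio of the 9 was 2.12, beside 0.13 over all genes. The summed level was 3.43-fold that of WT (2.90 to 4.09), and 7.23-fold (5.65 to 9.40) without the top cell of each library, which left 65 WT and 2179 twi UMIs.

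Among the RNA-binding IFIT genes, Ifit3 had 19 UMIs in WT CD8 T cells (45.7 CPM) and 377 in twi cells (198 CPM), for a ratio of 4.35 (2.74 to 7.30). In WT, 16 of the 19 came from the top cell, and without it the ratio was 25.3 (8.59 to 123) on 3 WT UMIs. Ifit1 had 15 and 298 UMIs (36.1 and 157 CPM), a ratio of 4.35 (2.60 to 7.87). Ifit1 was found in 7 of 96 WT and 114 of 386 twi cells, or 7.29% and 29.5%. Ifit3b went from 4 to 110 UMIs, a ratio of 6.02 (2.29 to 22.5). Summed with Ifit3, the pair had 23 and 487 UMIs and a ratio of 4.64 (3.05 to 7.39). Ifit2 was the lowest of the family in twi, with 4 and 47 UMIs, and its ratio of 2.57 had an interval of 0.94 to 9.83 that includes no difference. With all cells the 4 Ifit genes thus shared a direction, and Ifit2 was the member whose counts could not set it apart from WT. In male cells without the top cells, described below, Ifit2 had 3 WT and 3 twi UMIs and so showed no direction. Ifit3b had a ratio of 3.28 (0.62 to 32.4) there, which includes no difference, while the intervals of Ifit1 and Ifit3 lay above 1.

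For the ISG15 system, Isg15, the modifier itself, was the most abundant of the 9 genes in CD8 T cells of both libraries. WT cells had 53 UMIs of it (127 CPM) and twi cells 786 (414 CPM), for a ratio of 3.25 (2.46 to 4.37), and 7.19 (4.76 to 11.4) without the top cells. It was found in 14 of 96 WT cells (14.6%) and 185 of 386 twi cells (47.9%). Usp18, the protease that takes ISG15 off, had 11 and 181 UMIs (26.4 and 95.3 CPM), a ratio of 3.60 (1.97 to 7.35). Herc6, the ligase that puts it on, was nearly level, with 26 and 152 UMIs (62.5 and 80.0 CPM) and a ratio of 1.28 (0.84 to 2.02). Of the 26 WT UMIs of Herc6, 11 lay in the top cell, and without it the ratio was 2.17 (1.28 to 3.98). It was 0.91 after each cell was thinned to 1000 UMIs and 0.95 in male cells, both described below, so its direction was not kept. In the male cells without the top cells it was 1.67 (0.69 to 4.28), which includes no difference. Isg15 and Usp18 were also smaller in male cells. Isg15 had a ratio of 1.39 (0.94 to 2.07) there, and 3.31 (1.84 to 6.33) without the top cells. For Usp18 these were 1.58 (0.65 to 4.09) and 3.75 (1.01 to 20.7).

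The effector enzymes differed as well. Isg20, the RNA exonuclease, had 10 and 260 UMIs (24.0 and 137 CPM), a ratio of 5.69 with a lower bound of 3.05, and was found in 7.29% of WT and 35.8% of twi cells. Rsad2, which makes the chain-terminating nucleotide, had 61 twi UMIs and 3 WT UMIs, all of them in the top cell, for a ratio of 4.45 (1.45 to 22.2). Without the top cells it was at 0 in WT and at 31.2 CPM in twi. This was 4.24-fold a floor of 3 counts in WT, with an exact interval from 3.34.

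**Figure D3:**
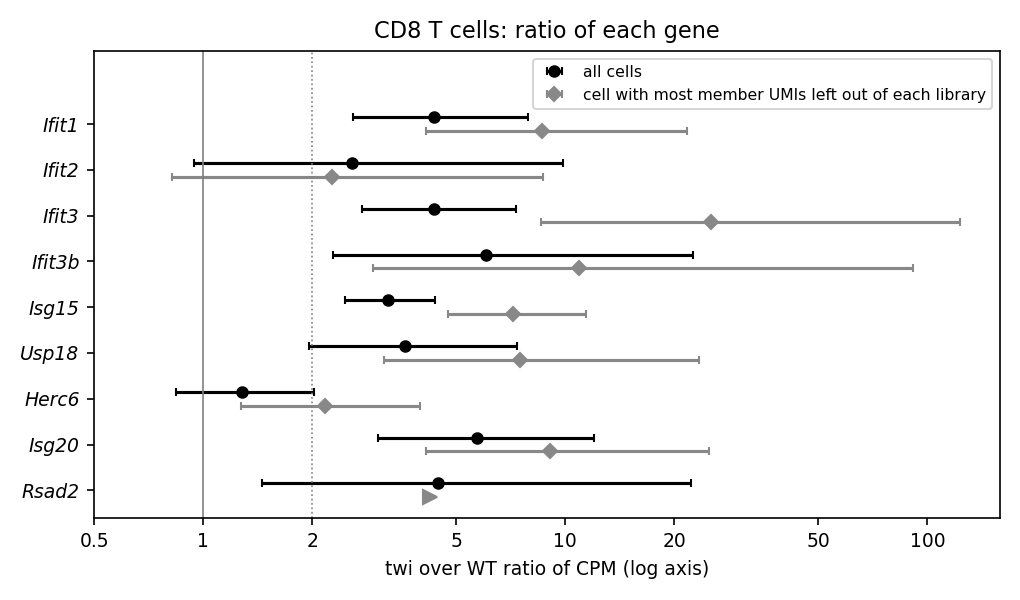
Ratio of CPM in twi over WT CD8 T cells for each gene (horizontal log axis, with lines at 1 and 2). Black circles are all cells and gray diamonds leave out the cell with the most member UMIs in each library, both with exact 95% intervals. The triangle for Rsad2 sets the WT count to the floor of 3 and carries no interval. Only Ifit2 and Herc6 have an interval that reaches 1 with all cells.

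More of the twi cells had member UMIs, and more of them had several of the 9 genes. A member UMI was found in 29 of 96 WT CD8 T cells (30.2%) and 280 of 386 twi ones (72.5%). To compare at equal depth, the UMIs of each cell were drawn down to 1000; 3 twi cells were too shallow for that and 0 WT cells. The shares were then 7.29% (2.98 to 14.4%) and 45.7% (40.6 to 50.8%). At least 3 of the 9 genes were found in 1.04% of thinned WT cells and 13.1% (9.85 to 16.8%) of thinned twi cells. These shares are over all cells and rise with the share of positive cells. Of the 7 positive thinned WT cells, 3 had at least 2 of the genes, beside 80 of the 175 in twi. With so few WT cells, no difference in genes per positive cell is shown. In twi B cells, whose levels of these genes were low, 7.65% of thinned cells had a member UMI, beside 5.04% in WT, so the twi CD8 share lay above both. Within twi CD8 T cells the genes were unevenly spread: the tenth of cells with the most member UMIs, 39 cells, held 55.2% of them.

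**Figure D4:**
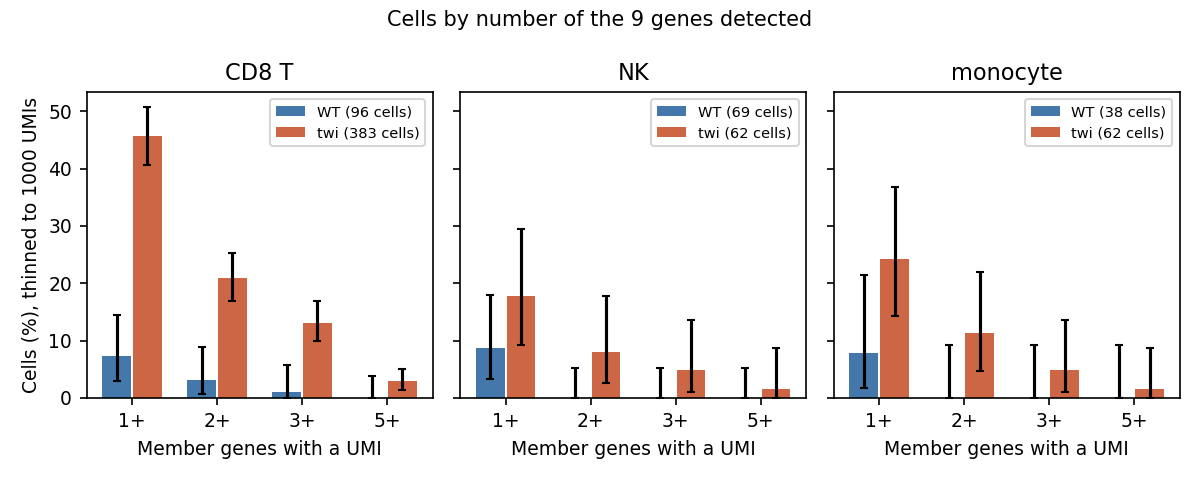
Share of cells (vertical axis, percent) in which at least 1, 2, 3 or 5 of the 9 genes had a UMI after each cell was thinned to 1000 UMIs, for WT (blue) and twi (orange) in CD8 T cells, NK cells and monocytes. Bars carry exact 95% Clopper-Pearson intervals; in CD8 T cells the twi bars stand above the WT bars, and in the other classes the intervals are wide.

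In the 383 thinned twi CD8 T cells, pairs of the genes fell in the same cells more often than their shares alone would put them for 35 of 36 pairs. Ifit1 and Isg15 were together in 29 cells, where the product of their shares is 10.7 cells, and the correlation across cells was 0.35. Isg15 and Usp18 were together in 24 cells beside 8.88, with a correlation of 0.32. The pair below the product was Ifit2 and Isg20, with 1 cell beside 1.15. Cells of 1 library differ in quality and in state, so these correlations are given as descriptions.

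The CD8 T cells of the 2 libraries differed in other ways that moved with the result. Ccr7, a receptor of naive and central memory T cells, was found in 64.6% of WT CD8 T cells (54.2 to 74.1%) and 27.2% of twi ones (22.8 to 31.9%). Among CD8 T cells without a Ccr7 UMI, the summed level was 182 CPM in 34 WT cells and 1392 CPM in 281 twi cells, a ratio of 7.67 (5.22 to 11.8). Among those with a Ccr7 UMI it was 436 CPM in 62 WT cells and 720 CPM in 105 twi cells, a ratio of 1.65 (1.34 to 2.04). The top WT cell had Ccr7 UMIs, and without the top cells the ratio was 4.40 (3.16 to 6.29). The twi level was thus higher on both sides of the Ccr7 split, and the size of the difference with Ccr7 depended on 1 WT cell.

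The top WT cell also had Y-linked UMIs. In CD8 T cells with a Y-linked UMI and no Xist, which keeps male cells in both libraries, the ratio was 1.60 (1.27 to 2.02) over 42 WT and 52 twi cells, and 3.77 (2.69 to 5.40) without the top cells. With all cells of this kind, the median log2 ratio of the genes was 0.73. The intervals of Ifit1, Ifit3 and Isg20 then lay above 1, and those of the other genes included 1. Within twi, CD8 T cells with Xist had 1297 CPM and those with a Y-linked UMI 921 CPM, a ratio of 1.41 (1.22 to 1.64). The same ratio was below 1 in twi NK cells, at 0.21 (0.13 to 0.34), and in twi CD4 T cells, at 0.48 (0.27 to 0.85). Both rested on few cells with a Y-linked UMI. In NK cells these were 18 cells with 87 member UMIs, of which single cells held 41, 20 and 16. In CD4 T cells they were 13 cells with 35 member UMIs, of which single cells held 13 and 13. The part of sex in the overall ratio was not tested further, because the WT library held no cell with Xist.

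**Figure D5:**
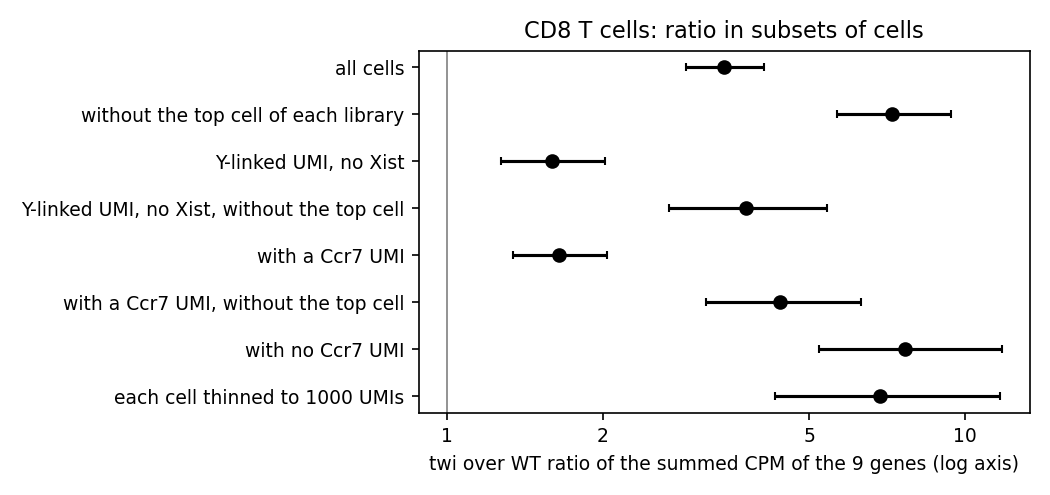
Ratio of the summed CPM of the 9 genes in twi over WT CD8 T cells (horizontal log axis, line at 1) for all cells and for subsets, with exact 95% intervals. The ratio is 1.60 to 1.65 in the 2 subsets that hold the top WT cell (a Y-linked UMI and no Xist, or Ccr7), and 3.77 to 4.40 in the same subsets without it; all cells, which also hold it, stand at 3.43.

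NK cells, the innate killers that share the cytotoxic program of CD8 T cells, had 18 member UMIs in WT, spread as 1 UMI in each of 18 cells, and 138 in twi. The summed level was 87.2 and 599 CPM, a ratio of 6.86 (4.19 to 11.9), and 5.12 (3.04 to 9.14) without the top cells. Of the 6 genes with at least 10 UMIs, 5 were at least 2-fold higher in twi (Ifit1, Ifit3, Isg15, Usp18 and Isg20), where 8.30% of all genes were. Isg15 went from 5 to 42 UMIs, a ratio of 7.52 (2.98 to 24.4). Isg20 went from 0 to 17 UMIs, 5.07-fold the floor of 3 counts, with an exact interval from 3.69. The twi NK signal was held by few cells, since 7 of 62 cells carried 79.7% of the UMIs. The highest of them, with 41, 20 and 16 member UMIs, had only 10, 19 and 8 UMIs of NK markers. The class average in twi was 41.1 marker UMIs per cell, and whether these are NK cells was not tested. Without the top cells the ratio was 4.31 (1.61 to 14.4) for Isg15 and 12.6 (1.91 to 531) for Usp18. That of Ifit3 was 2.69 (0.67 to 15.5), which includes no difference. Among NK cells with a Y-linked UMI and no Xist the ratio was 14.4 (6.99 to 34.4), and 9.01 (4.04 to 23.7) without the top cells.

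CD4 T cells had 35 and 119 member UMIs and a summed ratio of 2.27 (1.55 to 3.41), and 2.63 (1.62 to 4.47) without the top cells. Of 5 genes with at least 10 UMIs, 4 were at least 2-fold higher in twi (Ifit3, Isg15, Herc6 and Isg20), beside 11.4% of all genes. Ifit3 went from 2 to 29 UMIs, of which 15 were in 1 twi cell, a ratio of 9.68 (2.45 to 83.7). Rsad2 had 4 and 3 UMIs. After thinning, 19.6% of WT and 25.4% of twi CD4 T cells had a member UMI, and these shares cannot be told apart at this number of cells. The Cd163l1+ T cells of twi had 49 member UMIs in 18 of 35 cells (381 CPM). This was 2.89-fold the floor of 3 counts in WT, and 1.42-fold without the top cell, which held 20. The floor leaves out the counting error of twi, and the exact intervals of these ratios began at 2.27 and 1.08. No single gene of this class could be given a ratio with 7 WT cells.

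In B cells the difference in summed level was within counting error. They had 88 member UMIs in 564 WT cells and 43 in 172 twi cells. The ratio was 1.36 (0.92 to 1.98), and 1.41 (0.93 to 2.12) without the top cells. Of 6 genes with at least 10 UMIs, 3 were at least 2-fold higher in twi (Ifit2, Ifit3 and Usp18), beside 3.68% of all genes. A member UMI was found in 9.22% of WT cells (6.96 to 11.9%) and 20.3% of twi cells (14.6 to 27.1%), intervals that lie apart, while after thinning the shares were 5.04% (3.32 to 7.30%) and 7.65% (4.13 to 12.7%). Ifit2 had 5 and 8 UMIs, a ratio of 4.45 (1.28 to 17.3). Isg15 had 18 and 6 UMIs and a ratio of 0.93 (0.30 to 2.44). Isg20 had 16 and 1 UMIs and a ratio of 0.17 (0.0041 to 1.12), an interval that also includes no difference.

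In monocytes the WT cells had few of these transcripts, 18 member UMIs in 39 cells (72.2 CPM), near the level of WT B cells (71.2 CPM). A member UMI was found in 10 of them (25.6%). Isg15 had 1 UMI in 39 WT cells and 52 in 62 twi cells, a ratio of 39.5 (6.78 to 1589), and was found in 2.56% and 37.1% of cells. Ifit3 was at 0 in WT and had 27 UMIs in twi, 6.83-fold the floor of 3 counts, with an exact interval from 5.19. Ifit1 was at 0 and 18 UMIs, 4.55-fold the floor, with an exact interval from 3.34. Most UMIs of WT monocytes were those of Usp18, with 7 and 27 UMIs and a ratio of 2.93 (1.24 to 7.96), and Herc6, with 9 and 19 UMIs and a ratio of 1.60 (0.69 to 4.02). Of 8 genes with at least 10 UMIs, 7 were at least 2-fold higher in twi, beside 7.33% of all genes, and Herc6 was the other. The summed ratio was 7.97 (4.91 to 13.7), and 7.37 (4.25 to 13.8) without the top cells. With a Y-linked UMI and no Xist it was 4.84 (2.50 to 10.1).

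Neutrophils had 110 and 165 member UMIs and a summed ratio of 4.52 (3.53 to 5.81). All 6 genes with at least 10 UMIs were at least 2-fold higher in twi, beside 8.76% of all genes. The top twi cell held 88 of the 165 UMIs, among them 27 of Isg15, 23 of Ifit3, 11 of Ifit3b and 11 of Rsad2. It had 1674 UMIs in all and 95 of neutrophil markers, where the class average in twi was 1321 marker UMIs per cell. Without the top cells the ratio was 2.61 (1.90 to 3.58). Isg15 was then at 73.5 and 124 CPM, a ratio of 1.69 (1.02 to 2.74). Isg20 had 5 and 15 UMIs and a ratio of 9.05 (3.13 to 31.8), and Rsad2 had 16 and 13 UMIs and a ratio of 2.45 (1.09 to 5.44). After thinning, 14.1% of WT and 15.2% of twi neutrophils had a member UMI, so the share of positive cells was near level.

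Microglia, the resident macrophages of the brain, went the other way when all cells were summed. They had 93 UMIs in 22 WT cells and 56 in 18 twi cells, a ratio of 0.38 (0.27 to 0.53). Of 5 genes with at least 10 UMIs, 0 were at least 2-fold higher in twi, beside 14.6% of all genes. The top WT cell had 37 UMIs of Rsad2, 15 of Ifit1, 8 of Ifit3 and 8 of Isg15 among only 1451 UMIs, with 56 UMIs of microglial markers and 0 of Cd3. Without the top cells the ratio turned to 2.31 (1.18 to 4.87), on 12 WT and 38 twi UMIs. Rsad2 was then at 0 in WT and at 3 UMIs in twi, and Isg15 had 4 and 17 UMIs, a ratio of 3.11 (1.01 to 12.7). Before that cell was left out, a member UMI was found in 6 of 22 WT and 11 of 18 twi microglia, 27.3% and 61.1%, so the share of positive cells and the summed level went in opposite directions. The twi microglia were deeper, with medians of 4982 and 2629 UMIs.

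The rest of the pathway was read from 41 further genes listed by role. In CD8 T cells 30 of them had at least 10 UMIs, and 6 of the 30 were at least 2-fold higher in twi and 0 at least 2-fold lower, beside 12.1% and 4.38% of all genes. Ube2l6, the E2 enzyme for ISG15, went from 0 to 52 UMIs, 3.80-fold the floor of 3 counts. That value leaves out the counting error of twi. Uba7, the E1 enzyme, had 6 and 80 UMIs, a ratio of 2.92 (1.28 to 8.19). Both enzymes upstream of HERC6 in ISG15 attachment were thus among those 2-fold higher. Trim25 (1.04, 0.53 to 2.20) and Arih1 (1.08, 0.65 to 1.91), ubiquitin ligases that can also act with ISG15, had intervals that include 1.

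The other genes past 2-fold in CD8 T cells were Socs1, a feedback inhibitor of JAK kinases (11 and 137 UMIs, ratio 2.73, 1.48 to 5.59), Ifit1bl1, an Ifit family gene of the same cluster (6 and 81 UMIs, 2.96, 1.30 to 8.29), Cmpk2, the nucleotide kinase encoded next to Rsad2 (7 and 70 UMIs, 2.19, 1.01 to 5.65), and Stat2 (3 and 35 UMIs, 2.56, with a lower bound of 0.81). Irf9, a part of ISGF3, had 23 and 149 UMIs, a ratio of 1.42 (0.91 to 2.31). Ifngr1, a chain of the interferon gamma receptor, had a ratio of 1.54 (1.26 to 1.91), Ifnar1 of 1.46 (0.84 to 2.71), and Jak1 was lower in twi, at 0.72 (0.60 to 0.87).

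Of the interferon genes themselves, none of the 10 listed for types I and III had a UMI in any cell of either library. A count of 0 in 4791200 twi UMIs allows up to 3 UMIs. Ifng, the gene of interferon gamma, had 116 of the 3741477 UMIs in WT and 296 of the 4791200 in twi, a larger share in twi. In CD8 T cells it had 20 and 126 UMIs (48.1 and 66.3 CPM), a ratio of 1.38 (0.86 to 2.34), and in NK cells 39 and 43 UMIs (189 and 187 CPM), a ratio of 0.99 (0.62 to 1.56). A difference in Ifng was thus not detectable at this depth within either of these classes. Over all cells, which also hold other classes and in other shares, the Ifng level was higher in twi.

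A further 119 WT and 222 twi T cells had Cd3 UMIs, none of Cd8 or Cd4 and fewer than 2 of Cd163l1. In them all 9 genes were at least 2-fold higher in twi, beside 9.54% of all genes. Their NK and Cd3 markers differed between the libraries, as given below. For the other classes the counts of the pathway list are given in both directions. In CD4 T cells 8 of 20 genes were at least 2-fold higher and 1 lower, beside 11.4% and 6.71% of all genes. NK cells had 5 of 22 higher and 2 lower, beside 8.30% and 7.01%. Monocytes had 5 of 23 higher and 1 lower, beside 7.33% and 10.1%. Neutrophils had 3 of 19 higher and 0 lower, beside 8.76% and 8.86%. Microglia had 2 of 13 higher and 1 lower, near the 14.6% and 14.8% of all genes. Cd163l1+ T cells had 1 of 8 higher and 0 lower, beside 11.3% and 8.44%. B cells had 0 of 27 higher and 2 lower, beside 3.68% and 6.81%. Ifnar1 in monocytes went from 3 to 20 UMIs with a ratio of 5.06, whose interval lay above 1.

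Across the 16 sums of class and library, the gene closest to the summed level of the 9 was Map4k4, a stress kinase of the MAP4K family, with a Pearson correlation of 0.82 on log2(CPM + 10). Chd7 (0.81), Hif1a (0.80) and Fyb (0.78) were also among the closest of 6410 genes with at least 100 UMIs. The 9 genes themselves had correlations with their sum from 0.69 (Ifit2) to 0.93 (Isg15). Each of them is a part of that sum, so these values cannot be set beside those of the other genes. The 16 points share libraries and differ in depth and in numbers of cells, and the WT microglia point rests on 1 cell, so these are descriptions.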

How the data were processed

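CD45+ brain cells of 1 WT and 1 twi library were analysed from the UMI counts per gene and barcode that the authors deposited, not normalized. Their notes name Cell Ranger 2.1.1 and mm10; the methods describe STAR alignment, a filter on mapping quality, an adaptive UMI threshold and removal of cells above 15% mitochondrial UMIs. Those barcodes were still in the counts and were removed (7 WT, 13 twi). The labels give 1 h of digestion with collagenase and dispase, the methods a shorter digestion with collagenase D.

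Cells were classed by marker UMIs. T cells needed 2 Cd3 UMIs with 2 of Cd8, 1 of Cd4 or 2 of Cd163l1, and NK cells 3 marker UMIs and no Cd3. B cells, microglia and monocytes needed 30 marker UMIs per 10000 and neutrophils 150. These limits were set on the marker distributions of these cells, without the 9 genes. No doublet caller was run, so doublets may remain. UMIs were summed per class and library as CPM, with exact 95% intervals (scipy 1.17.1). A gene needed 10 UMIs over both libraries to be counted, a library at 0 was set to the floor of 3 counts, and at most 3 UMIs in both gave no fold. Cells were thinned to 1000 UMIs without replacement. UMIs are not independent molecules of many cells or animals, so intervals of levels and ratios leave out the spread between cells and between animals. Intervals of shares of cells leave out the spread between animals. The ratios, their intervals and the 2-fold calls were tested on Poisson counts simulated from the summed CD8 T cells. Those counts held no spread between cells or animals, so the intervals were not tested against it. The gates and the other classes were not simulated. The genes, lists, markers and alternatives were chosen with earlier results of these data known. Named are all 9 genes, the 41 pathway genes that a result turns on, and genes among the 5 of most similar pattern; 1 gene that this rule names is not reported here; Gm45193 and Ccr7 were added after values were seen.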

Additional observations from a re-analysis of the deposited data

Results flagged for a closer look

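Microglia stood out because the summed level of the 9 genes was lower in twi than in WT, with a ratio of 0.38, while CD8 T, CD4 T, Cd163l1+ T and NK cells, neutrophils and monocytes were higher in twi. The difference between the classes was not tested. The ratio was 2.31 once the WT cell with 81 of the 93 UMIs and the top twi cell were left out.

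A signal was also present in cells outside the 8 classes. These included T cells with Cd3 UMIs, none of Cd8 or Cd4 and fewer than 2 of Cd163l1. They had 34 member UMIs in 119 WT cells (106 CPM) and 649 in 222 twi cells (867 CPM), a ratio of 8.17 (5.79 to 11.9). These cells are what the gates left over, and their markers differed between the libraries. They had 7.57 UMIs of NK markers per WT cell and 3.99 per twi cell, and 6.81 and 9.08 of Cd3. Which cell types they hold in each library was not tested. All 9 genes were at least 2-fold higher there, beside 9.54% of all genes. Herc6 went from 1 to 49 UMIs in these cells, a ratio of 21.0 (3.59 to 845) that rests on 1 WT UMI. In CD8 T cells its ratio was 1.28 (0.84 to 2.02), and 2.17 (1.28 to 3.98) without the top cells. Cells of no class had a ratio of 5.88 between twi and WT.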

How the results depend on the processing

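No paired analysis was possible because each genotype had a single library. Depth and cell number limit every class (in WT CD8 T cells Ifit2 and Ifit3b had 4 UMIs each and Rsad2 3), and animals within a library cannot be told apart. The alternatives with the top 2 cells left out, with or without Ccr7, and with male cells less the top cell were chosen after seeing the data. Other limits on mitochondrial UMIs, the looser gate, size factors and totals without mitochondrial and ribosomal genes moved none of the summed ratios, counts of genes past 2-fold or medians outside their counting interval or by over 1.5 times.

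In CD8 T cells the summed ratio was 4.62 with equal weight for each cell, 6.85 after thinning, 1.60 in cells with a Y-linked UMI and no Xist (3 of 7 genes past 2-fold, median log2 ratio 0.73), 7.23 without the top cell and 8.21 without the top 2 cells of each library, 7.67 without Ccr7, 1.65 with Ccr7 and 4.40 with Ccr7 but without the top cell. In CD4 T cells it was 3.54 with the stricter gate; genes past 2-fold were 1 of 1 with that gate, 0 of 1 after thinning and 1 of 1 in the male cells. In Cd163l1+ T cells the ratio to the floor was 2.17 with equal weights, 1.42 without the top cell and 1.04 without the top 2. Without the top 2 the exact interval began at 0.79 and includes no difference. In NK cells 2 of 2 genes passed after thinning, and the ratio in male cells was 14.4, or 9.01 without the top cell. In B cells 0 of 3 passed after thinning and 1 of 2 in male cells. In neutrophils 3 of 4 passed after thinning. In male neutrophils no gene reached 10 UMIs, so 0 of 0 passed. Their ratio was 2.26 (0.65 to 6.44) on 5 twi UMIs, or 1.79 (0.19 to 8.22) on 2 without the top cell. Both intervals include no difference. Without the top cell of all neutrophils the ratio was 2.61 with 3 of 4 genes and a median log2 ratio of 1.37, and 1.75 without the top 2. In monocytes no gene reached 10 UMIs after thinning (0 of 0), and 1 of 2 passed in male cells, where the ratio was 4.84. In microglia the ratio was 0.17 with equal weights, 0.13 after thinning and 0.096 in male cells (0.81, 0.080 to 4.54, without the top cell). It reversed to 2.31 without the top cell (1 of 1 gene past 2-fold, median log2 ratio 1.64) and 2.81 without the top 2, and a fold of 1.5 gave 1 gene. Thinning drops the UMIs per gene, so fewer genes reach 10 UMIs, and counts over so few genes say nothing of a loss; in these subsets 3.64% to 18.6% of all genes passed.

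Thinning lowered the share of cells with a member UMI to 7.29% in WT and 45.7% in twi for CD8 T cells, 19.6% and 25.4% for CD4 T cells, 8.70% and 17.7% for NK cells, 5.04% and 7.65% for B cells, 14.1% and 15.2% for neutrophils and 7.89% and 24.2% for monocytes, and in twi to 23.5% for Cd163l1+ T cells and 35.3% for microglia. With the stricter gate the share of twi CD4 T cells was 35.0%. Of the ratios of single genes, 468 stayed within their counting interval and 43 left it, and 0 of those whose interval excluded 1 turned. Alternatives chosen after seeing the data were not in this count. No ratio was formed at 3 or fewer UMIs in both libraries, so a turn there could not be counted. In microglia without the top cells, Ifit1 had 2 WT and 2 twi UMIs and Rsad2 had 0 and 3. The ratio of Herc6 in CD8 T cells, whose interval includes 1, fell from 1.28 to 0.91 after thinning and 0.95 in male cells. Where values moved and no construction is named, the cause was not tested.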
